A study of Mus musculus with 6 samples.

Results

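The bile acid transport and FXR axis was read as 7 genes of the deposited count table, namely Nr1h4, Nr0b2, Fgf15, Slc10a2, Fabp6, Slc51a and Slc51b, of 31227 genes in all. The 7 were chosen by name, as ileal genes of bile acid transport and of the bile acid receptor FXR, and each symbol matched 1 Ensembl mouse gene. All 7 passed the filter on low counts and were tested. The study profiled mouse intestinal organoids by bulk RNA sequencing, in 6 libraries. Such organoids are gel cultures in which gut stem cells form an epithelium, here in medium with EGF, Noggin and R-spondin1. Of the libraries, 2 were from Smad4 KO organoids given TGF-β at 0.5 nM (Smad4 KO+TGFb in the labels), 2 were from untreated Smad4 KO organoids and 2 from wild type (WT) organoids. All titles give 48 h, but the treatment text leaves unclear whether TGF-β lasted 48 h or was followed by a further 2 days. The labels do not say how Smad4 was inactivated, which segment of the intestine or how many animals or lines the organoids came from, and they name no bile acid among the additions to the medium. No WT organoids given TGF-β were analysed here.

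Bile acids are made in the liver, secreted into the gut and taken back up by absorptive cells of the ileum, from where they return to the liver. The transporter encoded by Slc10a2 (ASBT) takes them up with sodium at the apical membrane, the protein encoded by Fabp6 binds them in the cytosol, and Slc51a and Slc51b encode the α and β chains of the exporter at the basolateral membrane. Nr1h4 encodes FXR, a nuclear receptor that bile acids activate and that binds DNA together with an RXR partner. Among its known intestinal targets are Fabp6, Slc51a, Slc51b, Nr0b2, which encodes the repressor SHP, and Fgf15, a hormone that lowers bile acid synthesis in the liver.

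Library totals ran from 40549534 to 50699356 count units at about 4 units per fragment, with a mitochondrial share of 3.87% to 4.7%. Smad4 itself had 25.2 and 29.5 CPM (TMM-scaled counts per 1e6) in the treated Smad4 KO libraries, 21.7 and 23.1 CPM in the untreated Smad4 KO libraries and 99.4 and 109 CPM in the WT libraries, so its transcripts were lower but not absent. The 8 epithelial markers, among them Epcam and Cdh1, summed to between 6930 and 13600 CPM in each library. Of 6 fibroblast markers, Col1a2, Col3a1, Dcn and Lum were at 0 in every library, as were Cdh5 and Kdr of 5 endothelial markers and Cd79a of 6 leukocyte markers. The fibroblast list summed to at most 0.479 CPM in a library and the endothelial list to between 0.783 and 2.01 CPM. The leukocyte list summed to 1.43 to 2.83 CPM in treated Smad4 KO libraries and 1.21 to 1.43 CPM in Smad4 KO libraries, with 0.365 to 0.878 CPM in WT libraries, and its part in the results was not tested. Of 6 hepatocyte markers Fgb was at 0 in every library, and the list summed to 10.6 to 11.5 CPM in treated Smad4 KO, 22.9 CPM in untreated Smad4 KO and 28.6 to 29.9 CPM in WT libraries. The replicates may be technical, since the labels name no separate cultures or animals, so the p-values measure only the spread between these libraries.

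In these organoids the axis was measurable but mostly low. Nr1h4 and Slc51a were the only members above 5 CPM in every library, and 1 fragment was worth 0.0764 to 0.102 CPM. Adjusted for exon length, Nr1h4 was first in each group, with 9.89 ± 3.1 CPM per kb in treated Smad4 KO, 12.8 ± 3.4 in Smad4 KO and 7.94 ± 0.063 in WT (mean ± SD, n = 2 per group). Slc51a was second, with 8.65 ± 0.8, 12 ± 0.32 and 3.22 ± 0.28 CPM per kb in the same order of groups. The libraries of these genes overlapped in both Smad4 KO groups and not in WT.

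Below these leading members the order of the length-adjusted levels was not the same in the 3 groups. In treated Smad4 KO organoids Slc51b (2.06 ± 1 CPM per kb), Fgf15 (1.2 ± 0.028), Slc10a2 (0.718 ± 0.28), Fabp6 (0.386 ± 0.55) and Nr0b2 (0.162 ± 0.084) followed, where Slc10a2 overlapped Fabp6, and Fabp6 overlapped Nr0b2. In Smad4 KO organoids Fabp6 came next at 8.55 ± 2.5 CPM per kb, ahead of Slc51b (3.8 ± 0.85), Slc10a2 (0.9 ± 0.086) and Fgf15 (0.888 ± 0.075), whose libraries overlapped, and Nr0b2 (0.48 ± 0.31). The higher of the Fabp6 libraries and the lower of the Nr1h4 libraries both stood at 10.3 CPM per kb. In WT organoids Slc51b (2.12 ± 0.13 CPM per kb) stood above Nr0b2 (1.42 ± 0.048) and Fabp6 (1.27 ± 0.22), whose libraries overlapped, and above Slc10a2 (0.693 ± 0.11) and Fgf15 (0.198 ± 0.068). Fgf15 was thus last in WT and Nr0b2 last in both Smad4 KO groups.

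**Figure D1:**
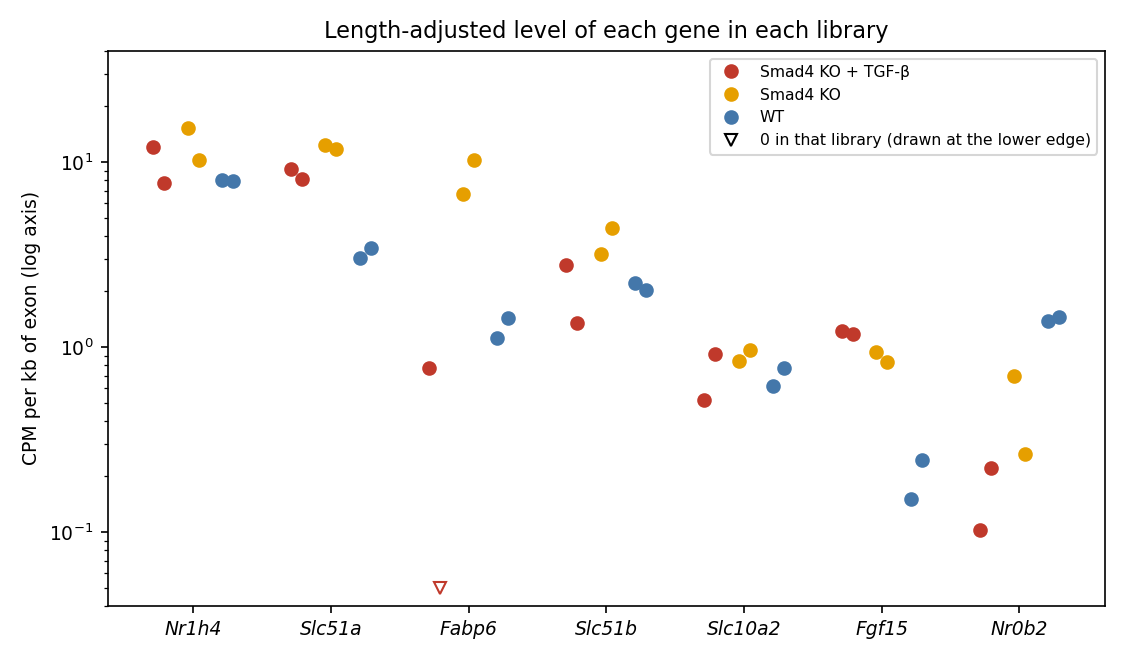
Level of each of the 7 genes in each library, in CPM per kb of exon on a log axis, with 1 point per library coloured by group. Nr1h4 and Slc51a lie highest, Fabp6 spans the widest range, with 10.3 CPM per kb in a Smad4 KO library and 0 in a treated library, and Nr0b2 is lower in both Smad4 KO groups than in WT.

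Promoters of 6 of the 7 members, all but Fgf15, were taken from RefSeq (GRCm38.p6), each from 250 bases before to 50 bases after the start of transcription. They were searched on both strands for the inverted repeat that FXR with RXR is known to bind, which is AGGTCA, any base and TGACCT, and for the HNF1 element, which is GTTAAT, any base and ATTAAC, each with up to 2 mismatches. They were also searched for the nuclear receptor hexamer AGGTCA alone, which is contained in the inverted repeat, with no mismatch. The promoters of Fabp6, Slc51a and Nr0b2 are shown because these genes moved in at least 1 comparison. Capitals mark the matches to the inverted repeat in Fabp6 and to the hexamer in Slc51a, and Nr0b2 held no match to the 3 motifs in this window.
Fabp6, chr11:43601513-43601812, minus strand: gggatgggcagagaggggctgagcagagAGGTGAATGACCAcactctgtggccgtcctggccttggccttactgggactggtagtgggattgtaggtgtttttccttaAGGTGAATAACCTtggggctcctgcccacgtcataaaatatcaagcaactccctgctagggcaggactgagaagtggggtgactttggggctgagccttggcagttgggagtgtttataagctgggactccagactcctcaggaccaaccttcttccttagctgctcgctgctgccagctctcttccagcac
Slc51a, chr16:32487830-32488129, minus strand: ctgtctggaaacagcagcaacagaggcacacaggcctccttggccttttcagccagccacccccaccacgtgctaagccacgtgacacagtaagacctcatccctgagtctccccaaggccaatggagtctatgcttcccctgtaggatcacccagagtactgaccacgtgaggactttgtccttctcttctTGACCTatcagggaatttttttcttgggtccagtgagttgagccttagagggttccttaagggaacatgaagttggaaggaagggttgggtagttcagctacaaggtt
Nr0b2, chr4:133553126-133553425, plus strand: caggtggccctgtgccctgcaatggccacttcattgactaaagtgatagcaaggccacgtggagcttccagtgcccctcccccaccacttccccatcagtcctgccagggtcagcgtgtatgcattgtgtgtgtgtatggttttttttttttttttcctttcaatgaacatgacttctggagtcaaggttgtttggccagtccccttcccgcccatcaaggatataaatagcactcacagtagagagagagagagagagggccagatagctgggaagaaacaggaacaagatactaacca

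The Fabp6 promoter held 2 matches to the inverted repeat, each with 2 mismatches, which begin 222 and 142 bases before the start. Of 32851 RefSeq promoters of the same length, 1.14% held at least 1 such match, and none of the other members searched did. Fgf15 was not searched. The hexamer was in the promoters of Slc51a, Slc51b and Nr1h4, and in 16.3% of all promoters. The HNF1 element was matched in Slc10a2 by ATTAATTATTAAC, with 1 mismatch and 224 bases before the start, and in Nr1h4 by GTTAATCAGTAAA with 2, and in 1.36% of all promoters. The Nr1h4 window, at 89506609 to 89506908 on chromosome 10, lies inside the annotated gene, which begins at 89533585 on the minus strand. The Nr1h4 matches thus belong to an inner start of transcription. A match describes these letters only, and no binding was measured.

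The comparison of Smad4 KO with WT organoids sets the genotypes side by side without added TGF-β, and origin or line cannot be told apart from genotype. Slc51a and Fgf15 rose in Smad4 KO organoids, the exporter chain 3.75-fold and the hormone 4.49-fold. Of the 7 members 2 rose and 0 fell in edgeR at an adjusted p under 0.05, where 30.3% of all 15503 genes tested were called, 16.9% higher and 13.4% lower. The 2 of 7 called are near the share over all genes and are no result about the axis as a set. The median log2 fold change of the members was 0.84, beside -0.02 over all genes. The other 5 members did not pass, and their log2 fold changes ran from -1.56 for Nr0b2 to 2.74 for Fabp6. In bulk RNA, fewer cells of a type and less RNA per cell cannot be told apart.

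The comparison of treated with untreated Smad4 KO organoids asks what added TGF-β does where Smad4 is deficient, and time in culture may differ as well. Slc51a fell 1.39-fold and Fabp6 fell 21.9-fold with TGF-β, the second from few fragments. Here 0 members rose and 2 fell, where 16.3% of all genes were called, 7.78% higher and 8.48% lower, and the members' median log2 fold change was -0.48, beside -0.01 over all genes. The treated group set against WT combines both differences. In it Fgf15 rose 6.06-fold, Slc51a rose 2.69-fold and Nr0b2 fell 8.63-fold, so that 2 members rose and 1 fell, where 39.7% of all genes were called, 20.7% higher and 19% lower. These counts of members are near the share over all genes as well and are no result about the axis as a set. The members' median was 0.05, beside -0.02. These comparisons share libraries with each other, so their values are not independent.

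**Figure D2:**
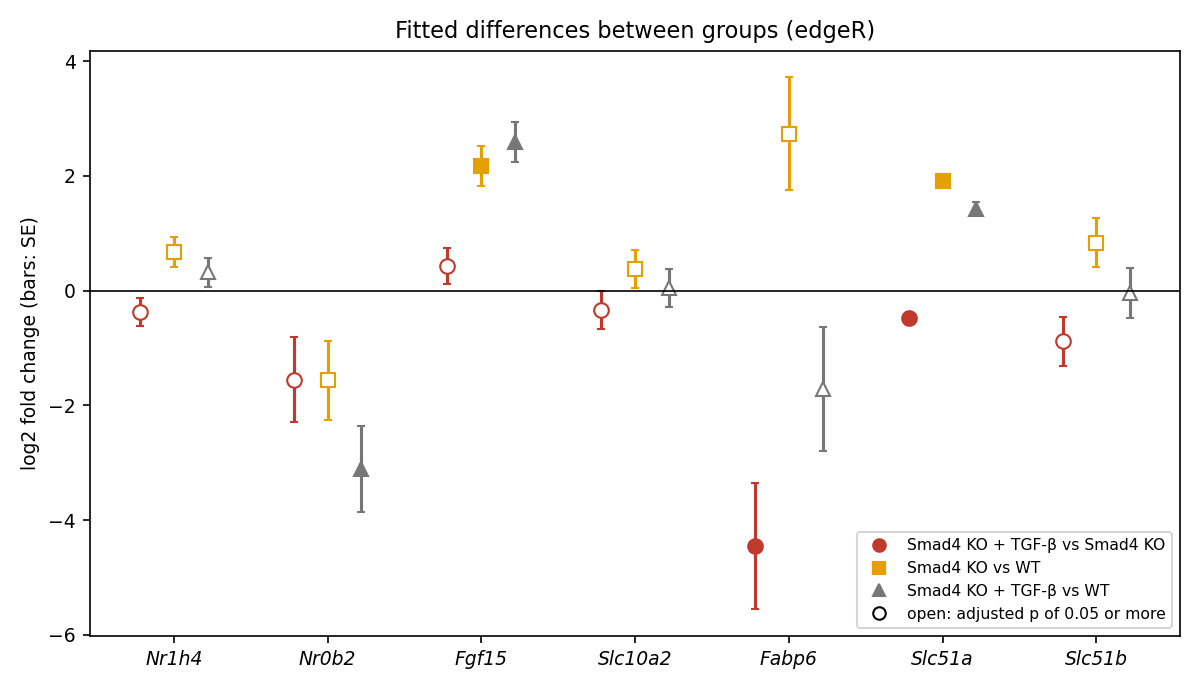
Log2 fold change of each gene in the 3 comparisons, with bars of 1 SE from the edgeR fit and 2 libraries per group. Filled symbols passed at an adjusted p under 0.05 and open symbols did not; Fgf15 and Slc51a are filled above 0 against WT, Fabp6 and Slc51a are filled below 0 for TGF-β against Smad4 KO, and Nr0b2 is filled below 0 for treated Smad4 KO against WT.

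The receptor gene Nr1h4 (ENSMUSG00000047638) lies on chromosome 10, 89454234 to 89533585 on the minus strand (GRCm38), with 11 exon blocks in 3 annotated transcripts. It stood at 27.8 and 17.7 CPM in treated Smad4 KO libraries, at 35 and 23.8 CPM in Smad4 KO libraries, with 18.4 and 18.2 CPM in WT libraries. Both Smad4 KO libraries were above both WT libraries, while the treated libraries overlapped each of the other groups. The log2 fold change was 0.68 ± 0.26 SE for Smad4 KO against WT (edgeR adjusted p = 0.092), -0.37 ± 0.25 for treated against untreated Smad4 KO (0.41) and 0.32 ± 0.25 for treated Smad4 KO against WT (0.38). Libraries of the same group differed more in Nr1h4 in both Smad4 KO groups, with SDs of 7.1 and 7.9 CPM in treated and untreated Smad4 KO, than in WT, with an SD of 0.15 CPM.

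Nr0b2 (ENSMUSG00000037583, chromosome 4, 133553376 to 133556536 on the plus strand) encodes SHP, a nuclear receptor without a DNA-binding domain that represses other receptors. It stood at 0.116 and 0.251 CPM in treated Smad4 KO libraries, at 0.789 and 0.297 CPM in Smad4 KO libraries, with 1.57 and 1.64 CPM in WT libraries. The 3 groups did not overlap, and the order from high to low was WT, Smad4 KO and treated Smad4 KO. These are few fragments, about 4 in the treated group, 11 in Smad4 KO and 38 in WT. The nearest treated and untreated Smad4 KO libraries held 2.75 and 3 fragments. The counting interval of the ratio of treated to untreated Smad4 KO is 0.0772 to 1.12, so the order of these groups is not resolved. In edgeR the fall in treated Smad4 KO against WT was 8.63-fold (log2 fold change -3.11 ± 0.75 SE, adjusted p = 0.018), and counting error alone allows 3.1-fold to 33.2-fold. Smad4 KO against WT (-1.56 ± 0.69, adjusted p = 0.14) and treated against untreated Smad4 KO (-1.55 ± 0.74, adjusted p = 0.23) did not pass. Without single libraries these log2 fold changes ran from -2.42 to -1.02 and from -2.21 to -0.69, where -2.42 and -0.69 are the values without Smad4 KO replicate 1. The call against WT was lost without WT replicate 1 (adjusted p = 0.071), WT replicate 2 (0.073) or treated replicate 1 (0.084, with a log2 fold change of -2.66), and was -3.76 without treated replicate 2 (0.042). Over all alternatives its adjusted p ran from 0.00073 to 0.084.

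Fgf15 (ENSMUSG00000031073, chromosome 7, 144896531 to 144900953 on the plus strand) is the hormone that acts on the liver receptor FGFR4 with β-Klotho. It stood at 3.72 and 3.6 CPM in treated Smad4 KO libraries, at 2.88 and 2.55 CPM in Smad4 KO libraries, with 0.458 and 0.753 CPM in WT libraries. All 4 Smad4 KO libraries were above both WT libraries, and the treated and untreated ones did not overlap. Smad4 KO was 4.49-fold higher than WT (log2 fold change 2.17 ± 0.35 SE, edgeR adjusted p = 0.0048) and treated Smad4 KO 6.06-fold higher (2.6 ± 0.35, adjusted p = 0.0016). With TGF-β against Smad4 KO the log2 fold change was 0.43 ± 0.32 (adjusted p = 0.44). The WT level rests on about 14 fragments, and the counting interval of the ratio of Smad4 KO to WT is 2.55 to 9.08.

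The gain of Fgf15 against WT passed under each of the 14 alternative settings in both comparisons, with adjusted p of 2.2e-06 to 0.023 for Smad4 KO and of 3.6e-09 to 0.0095 for treated Smad4 KO. Of its exon length, 25.7% overlaps Gm26793 and Gm39119 on the opposite strand, and the strand setting of the counts is not known. Gm26793 stood between 0 and 0.802 CPM and Gm39119 between 0 and 0.223 CPM, a range that reaches the WT level of Fgf15, and their part in its values was not tested. Gm26793 passed in none of the comparisons (adjusted p of 0.62 to 0.89), and Gm39119 was not tested.

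**Figure D3:**
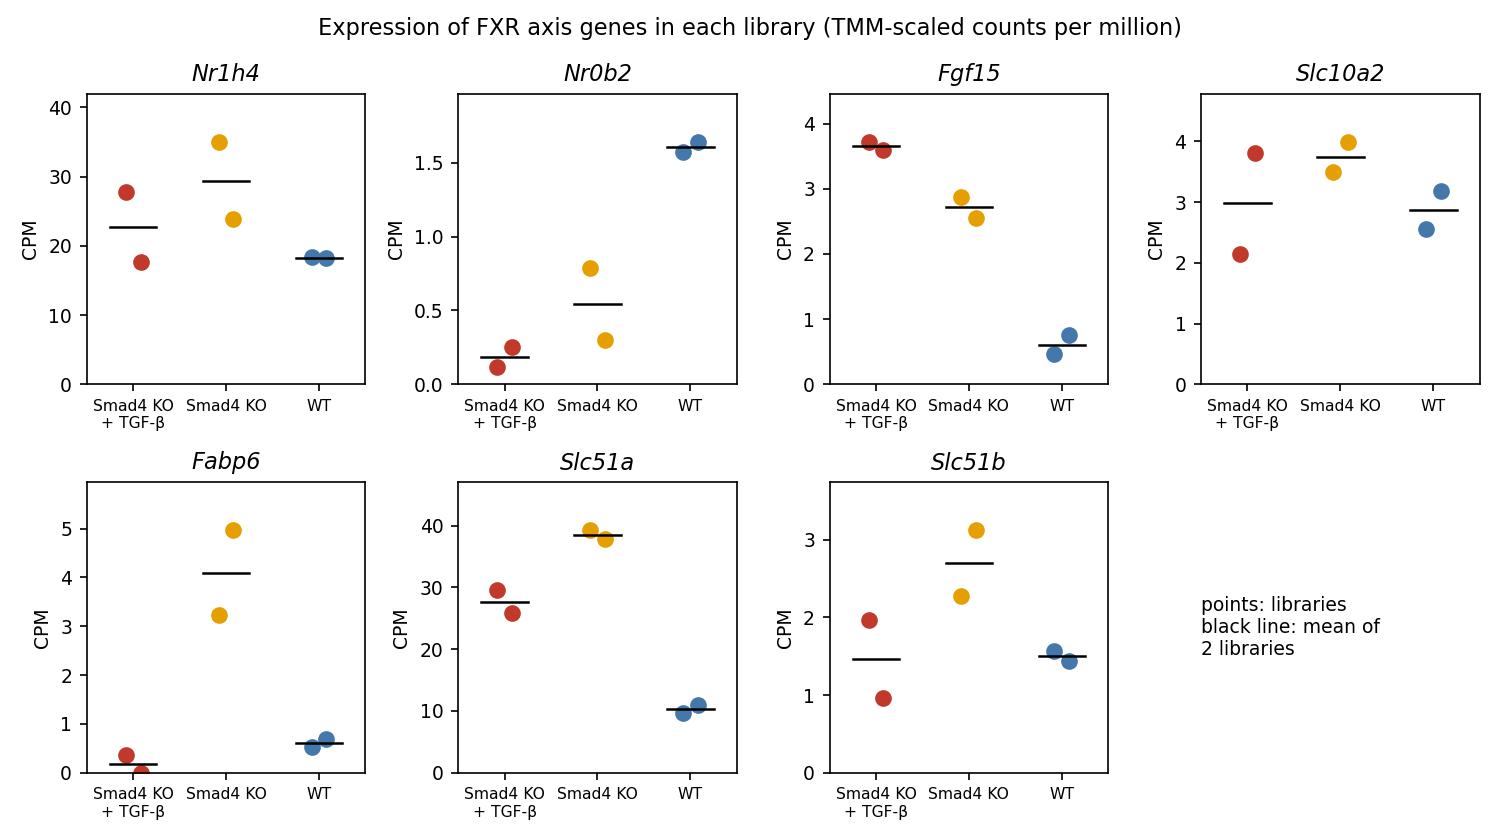
TMM-scaled CPM of each gene in each library, in 1 panel per gene with its own axis from 0; points are libraries and the black line is the mean of 2. Slc51a and Fgf15 are higher in the 4 Smad4 KO libraries than in WT, Nr0b2 is highest in WT, and Fabp6 is high in untreated Smad4 KO only, at 3.23 and 4.96 CPM.

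The uptake transporter gene Slc10a2 (ENSMUSG00000023073, chromosome 8, 5083219 to 5105351 on the minus strand) encodes ASBT. It stood at 2.15 and 3.81 CPM in treated Smad4 KO libraries, at 3.49 and 3.99 CPM in Smad4 KO libraries, with 2.56 and 3.19 CPM in WT libraries. The treated libraries spanned the WT ones, and the Smad4 KO libraries lay above both WT libraries. No comparison passed in edgeR, with log2 fold changes of 0.38 ± 0.33 SE for Smad4 KO against WT (adjusted p = 0.45), -0.33 ± 0.33 for treated against untreated Smad4 KO (0.6) and 0.05 ± 0.33 for treated Smad4 KO against WT (0.92). With an SE of 0.33, a log2 change of -0.48, the size seen for Slc51a with TGF-β, would lie within 2 SE of 0 for this gene.

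Fabp6 (ENSMUSG00000020405, chromosome 11, 43596049 to 43601540 on the minus strand), the cytosolic bile acid binding protein, whose promoter is among those shown, had the largest fitted fold change of the members. It stood at 0.37 and 0 CPM in treated Smad4 KO libraries, at 3.23 and 4.96 CPM in Smad4 KO libraries, with 0.535 and 0.685 CPM in WT libraries. The 3 groups did not overlap, with untreated Smad4 KO highest and treated Smad4 KO lowest. The groups hold about 4, 82 and 14 fragments in this order. With TGF-β Fabp6 fell 21.9-fold against Smad4 KO (log2 fold change -4.45 ± 1.1 SE, edgeR adjusted p = 0.04), and counting error alone allows 8.43-fold to 84.2-fold.

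That call of Fabp6 was lost without Smad4 KO replicate 1 (adjusted p = 0.092) or 2 (0.15), without WT replicate 1 (0.069) or 2 (0.066) and with only the 4 libraries compared (0.053). The log2 fold change was -3.46 without treated replicate 2, where the gene is at 0, and -10.49 without treated replicate 1, which leaves only that library, and a fitted value against 0 depends on the prior count and is no bound. Over the alternatives the adjusted p ran from 0.00043 to 0.15. For Smad4 KO against WT the log2 fold change of Fabp6 was 2.74 ± 0.98 (adjusted p = 0.081), with a counting interval of the ratio of 3.99 to 13.5. It passed under 5 of the 14 alternatives, with adjusted p of 0.0059 to 0.26. Treated Smad4 KO against WT gave -1.71 ± 1.08 (adjusted p = 0.26), and -7.74 (adjusted p = 0.0072) without treated replicate 1, again against a lone library at 0.

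The exporter chain Slc51a (ENSMUSG00000035699, chromosome 16, 32474504 to 32487879 on the minus strand) had the smallest SE of the 7 in each comparison. It stood at 29.5 and 25.9 CPM in treated Smad4 KO libraries, at 39.2 and 37.8 CPM in Smad4 KO libraries, with 9.64 and 10.9 CPM in WT libraries. The 3 groups did not overlap. Smad4 KO was 3.75-fold higher than WT (log2 fold change 1.91 ± 0.12 SE, edgeR adjusted p = 8.4e-05) and treated Smad4 KO 2.69-fold higher (1.43 ± 0.11, adjusted p = 0.00017). Both passed under each of the 14 alternatives. Of its exon length, 17.7% overlaps Pcyt1a on the opposite strand, which stood at 36.9 to 75.4 CPM and passed in none of the comparisons (adjusted p of 0.53 to 0.83). That range lies above the WT level of Slc51a, the strand setting is not known, and the part of Pcyt1a in the Slc51a values was not tested.

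The fall of Slc51a with TGF-β against Smad4 KO was smaller, at 1.39-fold (log2 fold change -0.48 ± 0.11, adjusted p = 0.032). It did not pass without treated replicate 1 (adjusted p = 0.06) or 2 (0.15), or without Smad4 KO replicate 1 (0.14) or 2 (0.1), with log2 fold changes of -0.57 to -0.39 and adjusted p of 0.0035 to 0.15 over the alternatives.

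Its partner chain Slc51b (ENSMUSG00000053862, chromosome 9, 65412714 to 65422955 on the minus strand) is needed for a working exporter at the membrane. It stood at 1.97 and 0.958 CPM in treated Smad4 KO libraries, at 2.27 and 3.12 CPM in Smad4 KO libraries, with 1.57 and 1.44 CPM in WT libraries. Smad4 KO libraries lay above those of both other groups, and the treated libraries spanned the WT ones. No comparison passed in edgeR, with log2 fold changes of 0.84 ± 0.43 SE for Smad4 KO against WT (adjusted p = 0.2), -0.88 ± 0.43 for treated against untreated Smad4 KO (0.24) and -0.04 ± 0.43 for treated Smad4 KO against WT (0.95). For treated against untreated Smad4 KO the log2 fold change was -1.49 without treated replicate 1 and -0.46 without treated replicate 2. Per kb of exon, Slc51a exceeded Slc51b 3.32-fold and 5.99-fold in treated Smad4 KO libraries, 3.84-fold and 2.69-fold in Smad4 KO libraries and 1.37-fold and 1.69-fold in WT libraries. All 4 Smad4 KO libraries had a higher ratio than both WT libraries. The overlap of 12.8% of the Slc51b exons with Rasl12 on the opposite strand, which stood at 0.149 to 0.764 CPM, was not tested as a part of these values.

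Markers of absorptive cells moved in the same libraries. Of 16 enterocyte markers, 14 rose and 2 fell in Smad4 KO against WT, where 30.3% of all genes were called. With TGF-β against Smad4 KO 1 marker rose and 14 fell, where 16.3% of all genes were called. The marker medians were 1.31 and -0.78 on the log2 scale. The summed level of these markers was 15100 to 15200 CPM in treated Smad4 KO libraries, 22500 to 22700 CPM in Smad4 KO libraries and 7160 to 7180 CPM in WT libraries. The apolipoprotein gene Apoa1 was 9.41-fold higher in Smad4 KO (1630 ± 25 against 174 ± 2.4 CPM, edgeR adjusted p = 6.4e-08), and the disaccharidase gene Sis was 2.34-fold lower with TGF-β (1180 ± 2.8 against 2770 ± 11 CPM, adjusted p = 1.3e-06). The part of the enterocyte markers in the members' values was not tested. All 10 markers of stem cells at the crypt base fell in Smad4 KO against WT, 6 of them fell with TGF-β, and 0 rose in either comparison. Their sum was 2900 to 2940 CPM in treated Smad4 KO, 4340 to 4400 CPM in untreated Smad4 KO and 7360 to 7400 CPM in WT libraries, and its part was not tested either.

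Set against the mean log2 CPM of the enterocyte list, the members spread to both sides. That mean was 1.28 higher in Smad4 KO than in WT, and relative to it Fabp6 was higher by 1.47, Fgf15 by 0.89 and Slc51a by 0.63, whereas Slc51b had a difference of -0.43, Nr1h4 of -0.59, Slc10a2 of -0.90 and Nr0b2 of -2.84. The enterocyte mean changed by -0.72 with TGF-β against Smad4 KO, and relative to it Fabp6 had a difference of -3.75, Nr0b2 of -0.85 and Slc51b of -0.16, whereas Slc51a was higher by 0.24, Nr1h4 by 0.35, Slc10a2 by 0.39 and Fgf15 by 1.15. These are values of the group means with no test. Slc51a had a lower level with TGF-β than without it but not a lower level relative to the mean of the enterocyte list. Single markers of that list ran from a log2 fold change of -1.44 (Dpp4) to 0.18 (Vil1), on both sides of Slc51a at -0.48.

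Region markers were read as well, since the members are known from the ileum. Of 7 tested genes of distal enterocytes, 5 rose and 0 fell in Smad4 KO against WT, and 0 rose and 4 fell with TGF-β. Over all genes 30.3% and 16.3% were called in these comparisons. Enpep, an aminopeptidase, was 6.59-fold higher in Smad4 KO (256 ± 12 against 38.9 ± 1.5 CPM, edgeR adjusted p = 1.7e-06) and 1.89-fold lower with TGF-β, and Clec2h was 3.27-fold higher and 1.71-fold lower. Slc34a2 was 21.2-fold higher in Smad4 KO and did not fall with TGF-β (log2 fold change 0.49, edgeR adjusted p = 0.064). Of 8 proximal genes, of which Fabp1 is also on the enterocyte list, 6 rose and 2 fell in Smad4 KO against WT. With TGF-β 1 rose and 6 fell, so both regional lists moved in the same comparisons. Adh1 was 3-fold higher in Smad4 KO and 2.02-fold lower with TGF-β. The 2 that fell in Smad4 KO were Cybrd1 (1.34-fold) and Pdx1 (1.29-fold, 17.4 ± 0.79 against 22.4 ± 0.88 CPM). With TGF-β Cybrd1 rose 1.26-fold and Pdx1 did not pass (edgeR adjusted p = 0.064). Gata4, a transcription factor known from the proximal small intestine and not from the ileum, stood at 191 and 204 CPM in treated Smad4 KO, 248 and 224 CPM in untreated Smad4 KO and 170 and 168 CPM in WT libraries. Fabp6 did not exceed 5 CPM in the same libraries, and the segment of origin was not tested.

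A list of FXR partners and related receptors, most of which have ligands or targets of their own, had 7 of 9 tested genes higher in Smad4 KO against WT and 5 lower with TGF-β, with 0 in the other direction. The shares called over all genes were 30.3% and 16.3%. Of the RXR partners only Rxra passed, and Rxrb had a log2 fold change of 0.12 in Smad4 KO (edgeR adjusted p = 0.45) and of -0.05 with TGF-β (0.82). Rxra had a log2 fold change of 0.59 in Smad4 KO (136 ± 1 against 90.1 ± 3.7 CPM, edgeR adjusted p = 0.0011) and of -0.45 with TGF-β (0.0057). The xenobiotic receptors Nr1i2 (PXR) and Nr1i3 (CAR) were 1.72-fold and 2.33-fold higher in Smad4 KO and the oxysterol receptor Nr1h3 (LXRα) 2.45-fold higher. With TGF-β the vitamin D receptor Vdr, which also binds the secondary bile acid lithocholic acid, was 1.87-fold lower (222 ± 2.8 against 414 ± 2 CPM, adjusted p = 6e-05). Nr1i3 was 1.86-fold lower with TGF-β and Nr5a2 (LRH-1), a receptor that SHP represses, 1.82-fold lower. Hnf4a, at 987 ± 1 CPM in treated Smad4 KO, 1010 ± 13 CPM in untreated Smad4 KO and 900 ± 2.9 CPM in WT, differed by at most 1.12-fold. It still passed in Smad4 KO against WT (edgeR adjusted p = 0.0019). The 7 higher genes thus include changes as small as those of Hnf4a and of Vdr (1.19-fold). Rxrg was at 0 in each library, and the bile acid membrane receptor Gpbar1 (TGR5) was too low to be tested.

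Other transporters of bile acids and sterols rose in 8 of 10 tested cases in Smad4 KO against WT and in 0 cases fell, while with TGF-β 3 rose and 5 fell. The shares of all genes called were 30.3% and 16.3%. Abcc2, Abcc3 and Abcg8 were 2.09-fold, 1.98-fold and 3.09-fold higher in Smad4 KO. The basolateral organic anion exporter Abcc3 was at 388 ± 2.3 CPM in treated Smad4 KO, 272 ± 8.3 CPM in untreated Smad4 KO and 137 ± 2.2 CPM in WT libraries, and so was higher in each step (1.43-fold with TGF-β, edgeR adjusted p = 0.00047). Abcc4, a related exporter, was 1.71-fold higher with TGF-β, and the organic anion carrier Slco2b1 was 3.05-fold lower (20.6 ± 1.2 against 62.7 ± 11 CPM, adjusted p = 0.00069). With TGF-β, Abcc3 and Abcc4 thus rose where Slc51a fell. The canalicular bile salt pump Abcb11 and Slco1a4 were at 0 in each library, which at 3 fragments per library allows up to 0.229 to 0.305 CPM.

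**Figure D4:**
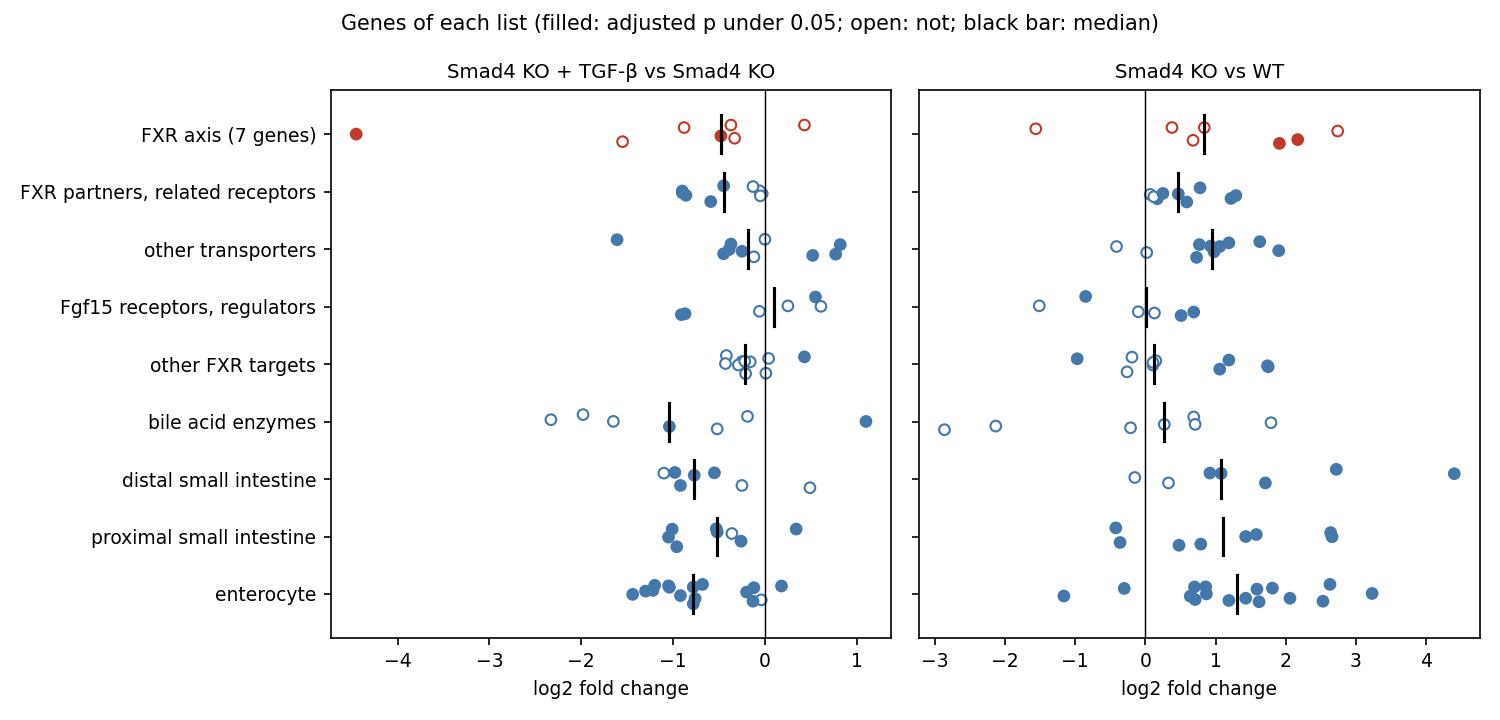
Log2 fold change of each tested gene of 9 lists with TGF-β against Smad4 KO (left) and in Smad4 KO against WT (right); filled points passed at an adjusted p under 0.05, and the black bar is the list median. The medians of the FXR axis, at -0.48 and 0.84, rest on 7 members of which 5 were not called in either comparison shown. They lie on the same side of 0 as those of the other lists, save the Fgf15 receptors and regulators on the left (0.09). The enterocyte medians are -0.78 and 1.31.

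Among 6 genes that receive or regulate the Fgf15 signal, Fgfr4 rose in each comparison, by 1.62-fold in Smad4 KO against WT and by 1.46-fold with TGF-β (63.9 ± 4.2 CPM in treated Smad4 KO, 43.7 ± 2.2 CPM in untreated Smad4 KO and 27 ± 3.7 CPM in WT). Malrd1 (Diet1), known to control the Fgf15 made by enterocytes, was 1.42-fold higher in Smad4 KO and 1.88-fold lower with TGF-β, and Fgfr3, another FGF receptor, was 1.8-fold lower in Smad4 KO and a further 1.83-fold lower with TGF-β. The co-receptor Klb passed in none of the comparisons. Of 10 other known FXR targets that could be tested, 3 rose and 1 fell in Smad4 KO against WT, namely Abcc2, Apoc2 (2.29-fold) and Il18 (3.33-fold) higher and Ang (1.95-fold) lower. With TGF-β against Smad4 KO 1 rose (Sdc1, 1.35-fold) and 1 fell (Abcc2, 1.19-fold). These 4 and 2 of 10 are near the shares over all genes, 30.3% and 16.3%, and are no result about FXR targets.

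Enzymes of bile acid synthesis and conjugation were mostly low. Cyp7a1, the rate-limiting enzyme of the liver, was at 0 in each library together with Cyp8b1, Cyp7b1 and Sult2a1. Of 7 tested enzymes 0 passed in Smad4 KO against WT, and with TGF-β 1 rose and 1 fell, where 30.3% and 16.3% of all genes were called. Cyp27a1, the mitochondrial sterol 27-hydroxylase, was 2.15-fold higher with TGF-β (11.6 ± 0.82 against 5.41 ± 1.6 CPM, edgeR adjusted p = 0.022), and the racemase Amacr was 2.06-fold lower. Against WT, treated Smad4 KO organoids had Cyp27a1 3.53-fold higher, and Amacr, Hsd3b7 and Cyp2c70, the last named after its value was seen, lower. In that comparison 39.7% of all genes were called. Cyp2c70 stood at 0.0456 ± 0.064 CPM in treated Smad4 KO and 1.11 ± 0.4 CPM in WT. The treated mean is below the 0.0925 and 0.0912 CPM that 1 fragment was worth in those libraries. Whether this call depends on single libraries was not tested.

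Genes with the most similar pattern over the 6 libraries were sought among about 10377 genes of at least 5 CPM, by the root mean square difference of centred log2 CPM. For Slc51a these were Adh6a (0.080), Cyp4f16 (0.088) and Selenop (0.101), and for Fgf15 they were Il22ra1 (0.145), Ifit1bl1 (0.152) and Ttc22 (0.184), where the members' own spread by the same measure was 0.81 and 1.08. Nr1h4 was nearest to Smug1, Vps11 and Acot1, Slc10a2 to Tmem80, Tom1 and Insig2, and Slc51b to Cenpx, Rchy1 and Acy1, at 0.081 to 0.236. For Fabp6, whose own spread was 1.87, the nearest were Zfp62, Mptx1 and Capn9 at 1.07 to 1.12, farther than for any other member compared. Fabp6 was at 0 in 1 treated library, so its spread and distances depend on the pseudocount of 0.1 CPM. Nr0b2, with a mean under 1 CPM, was not compared. Nearness describes these 6 libraries only.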

How the data were processed

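The deposited table holds whole-number expected counts per Ensembl gene. The tools named in the submitters' processing notes are StringTie 1.3.3b, HISAT2 2.1.0, SAMtools 1.9 and FastQC 0.11.9, and the build is GRCm38 (mm10). The strand setting and annotation release were not given in the sources used here. Of low values (1 to 24), 42.3% were multiples of 4, against 25% if evenly spread, so 1 fragment was taken as 4 units. This is an inference on which fragment numbers and the 95% counting intervals (exact binomial, counting error only) rest.

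Values were used as deposited. The low-count filter filterByExpr kept 15503 genes, libraries were scaled by TMM, and edgeR 4.0.16 (R 4.3.3) quasi-likelihood tests, 2-sided, were fitted to all 6 libraries with group as the only term (3 residual degrees of freedom). Benjamini-Hochberg adjustment ran over all genes tested. The SE was taken from the log2 fold change and its F statistic. Exon lengths and positions come from GENCODE vM21 (GRCm38), which may differ from the authors' annotation. The enterocyte-relative values are log2 ratios of group means less the shift of the list's mean log2 CPM. Similar patterns used a pseudocount of 0.1 CPM. The fit was also run on counts simulated from its own dispersion estimates. That run cannot test whether the libraries of a group stand for separate cultures or animals. DESeq2 1.42.0 was an alternative.

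The members, lists and rules were chosen with earlier results of these data known. Named beside the members were up to 3 passing genes per pathway list and comparison and up to 2 per regional or enterocyte list, by smallest adjusted p. Rxra, Rxrb, Gata4, Cybrd1, Pdx1, Klb, Cyp2c70 and the genes named as untested or at 0 fall outside this rule and were chosen after their values were seen. Replicates of each group differed by more than sampling noise (chi-square per degree of freedom of 5.47, 5.95 and 6.49 in treated Smad4 KO, Smad4 KO and WT, in fragments), so each library was counted by its label.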

Additional observations from a re-analysis of the deposited data

How the results depend on the processing

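The gains of Slc51a and Fgf15 against WT kept their direction and passed in all 14 alternatives. With TGF-β against Smad4 KO the members called lower, 2 in edgeR, were 1 (Slc51a) with only the 4 libraries compared and 0 to 1 without single libraries. With the replicate block they were 0, since Slc51a (adjusted p = 0.062) and Fabp6 (0.072) were lost, and Nr1h4 passed in Smad4 KO against WT (0.047). The block changed no other member's call. Same-numbered libraries deviated together with correlations of 0 to 0.02 across genes, so the samples share only a number. DESeq2 called 4 members higher in Smad4 KO against WT, the added ones being Fabp6 (0.028) and Nr1h4 (0.035). Against WT the treated group had 0 members lower with a minimum mean of 1 CPM, where Nr0b2 was not tested, and 0 to 1 without single libraries. Genes called with TGF-β against Smad4 KO, 2521 in edgeR, were 1504 to 2304 without single libraries, the lowest without treated replicates 1 and 2 (1504 and 1534) and Smad4 KO replicate 2 (1630). A group left with 1 library was assumed to vary like the others. The sign changed only for differences that passed nowhere. In treated Smad4 KO against WT the log2 fold change of Slc10a2 was -0.02 with upper-quartile scaling, and without single libraries it ran from -0.42 to 0.41, that of Slc51b from -0.64 to 0.39 and that of Nr1h4 from -0.04 to 0.61. In treated against untreated Smad4 KO that of Slc10a2 ran from -0.8 to 0.03 without single libraries. Depth limits Nr0b2 and Fabp6, with about 4 fragments each in the treated group.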
